A study of Mus musculus with 3 samples.

Results

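The genes of the insulin-like growth factor (IGF) axis described here were the ligands Igf1 and Igf2, the receptors Igf1r, Igf2r and Insr, and the adaptors Irs1 and Irs2. They are 7 of the 21107 gene names that the array placed on 1 chromosome, and were taken by name, with every probe within 500 kb on each side. Of 170305 probes, 68 carried one of the 7 names. The DNA came from 3 neurosphere lines, free-floating cultures grown in neural stem cell medium from mouse tumours resistant to inhibition of CSF-1R, a receptor that macrophages and microglia depend on. The series title places these tumours among gliomas and the resistance with IGF-1R and PI3K signalling, so the comparison asks whether the loci of the IGF axis were gained or lost in the tumour cells. Every line was taken at passages 2 to 3 and set against liver DNA on the same array. Line DNA was labelled with Cy5 and liver DNA with Cy3. Line 1 and its liver carry the number of 1 animal, and lines 2 and 3 carry that of another animal and share 1 liver label. The 3 lines form 1 group, without a line from an untreated or sensitive tumour, and the tumour's genotype, the inhibitor's name and dose and the age of the mice are not stated in the sources used here. A neurosphere line holds the cells that grew in culture, and the ratio averages over all of them, so a change in some cells and a smaller change in all of them cannot be told apart. DNA levels carry no marker of cell type, so the labelled cell type was not checked.

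IGF1 and IGF2 bind the type 1 IGF receptor, a tyrosine kinase that is closely related to the insulin receptor and forms hybrids with it. The activated receptors phosphorylate the adaptors IRS1 and IRS2, which recruit PI3 kinase and so lead to AKT. The type 2 receptor, encoded by Igf2r, has no kinase, takes up IGF2 for degradation and also sorts lysosomal enzymes. Igf2 and Igf2r are imprinted in mice, Igf2 being expressed from the paternal and Igf2r from the maternal copy in most tissues. In the brain and its tumours, IGF1 can come from macrophages and microglia as well as from neural cells. DNA copy number, measured here, is separate from the level of RNA or protein.

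Each value is log2 of line DNA over liver DNA after centring on the autosomal median of that array, called the log2 ratio. In a line with 2 copies of most autosomes, a gain to 3 copies in every cell would give 0.585 and a loss to 1 would give -1. Centring sets the autosomal median of each line level with that of liver, and the ploidy of the lines was not measured. Copies given below take that level as 2 and all cells as alike. The probes are 58 to 60 bases long, and the 10 printed here, as the array lists them, are those on which single values in the text rest. They are the only probes of Igf2 (chr7:149841807-149841866) and Irs2 (chr8:11000114-11000173), and the 3 probes that turned the sign of a gene's mean when left out, which were probe 1 of Igf1 (chr10:87333388-87333447), probe 5 of Igf2r (chr17:12918805-12918864) and probe 2 of Irs1 (chr1:82253203-82253262). The other 5 are the extremes of Igf1r (probe 4 at chr7:75137774-75137833 and probe 30 at chr7:75372518-75372577), the Igf1r probe with the widest spread over lines (probe 9 at chr7:75181080-75181139) and the extremes of Insr (probe 9 at chr8:3223390-3223449 and probe 10 at chr8:3235245-3235304), chosen after their values were seen. Probes are numbered along the chromosome within each gene, and coordinates are in the mm9 build of the file headers. The sources used here do not state the strand, and whether a probe lies in an exon, an intron or an untranslated region in mm9 was not analysed here.
Igf1 probe 1: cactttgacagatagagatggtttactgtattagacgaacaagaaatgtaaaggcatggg
Igf2 probe 1: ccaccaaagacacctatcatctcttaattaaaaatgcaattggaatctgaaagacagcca
Igf1r probe 4: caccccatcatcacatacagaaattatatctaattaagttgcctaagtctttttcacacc
Igf1r probe 9: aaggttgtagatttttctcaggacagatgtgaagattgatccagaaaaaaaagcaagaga
Igf1r probe 30: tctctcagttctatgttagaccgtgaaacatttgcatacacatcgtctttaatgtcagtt
Igf2r probe 5: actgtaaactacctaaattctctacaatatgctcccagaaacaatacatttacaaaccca
Insr probe 9: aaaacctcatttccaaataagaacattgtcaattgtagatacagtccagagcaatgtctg
Insr probe 10: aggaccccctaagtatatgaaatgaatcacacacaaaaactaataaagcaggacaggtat
Irs1 probe 2: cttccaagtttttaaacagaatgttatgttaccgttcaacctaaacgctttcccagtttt
Irs2 probe 1: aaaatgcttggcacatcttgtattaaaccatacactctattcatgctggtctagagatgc

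The array covered the 7 genes unevenly. Igf1r had 30 probes, Insr 14, Igf2r 9, Igf1 7 and Irs1 6, while Igf2 and Irs2 had 1 each. The 5 genes with at least 3 probes entered the test of gene means. The windows around the 7 genes held 64 to 99 probes, and that of Insr was cut short on one side, with probes for 23.4 kb before the gene and 496 kb after it, since the gene lies near the start of the covered part of chromosome 8. Neighbouring probes differed least steadily on the array of line 1, the least precise, with a spread of 0.384 on the log2 scale, beside 0.232 and 0.237 for lines 2 and 3. Liver DNA was well above background at 96.3% to 99.1% of probes and line DNA at 99.02% to 99.42%, and no spot was saturated. With 3 arrays on 1 slide and no dye swap, effects of dye or slide cannot be told apart from the comparison itself, and the number of arrays limits the precision.

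None of the 7 loci stood apart from liver in the way that a gained or lost copy in every cell would. The mean over the named probes of the 5 genes tested ran from -0.083 for Insr to 0.074 for Irs1, and 0 of 5 passed limma's moderated test against 0 after Benjamini-Hochberg adjustment over 9431 genes, with 0 at an unadjusted p under 0.05. Over all genes tested, 24.1% passed (1339 above and 937 below 0), a split that turned to 806 above of 1839 in the authors' value table and 1140 above of 2275 after the trend with local gene number was removed. Window means over named and flanking probes ran from -0.11 for Insr in line 1 to 0.0997 for Irs2 in line 2, and 0 of 7 members reached 0.2 from 0 in any line, against 1.05% of 21097 genes. The 95% limma intervals of the 5 gene means lay between -0.18 and 0.20, below 0.585 and above -1. These intervals use the spread between 3 lines, moderated by that over all genes tested. An event in a small share of cells could lie within them.

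**Figure D1:**
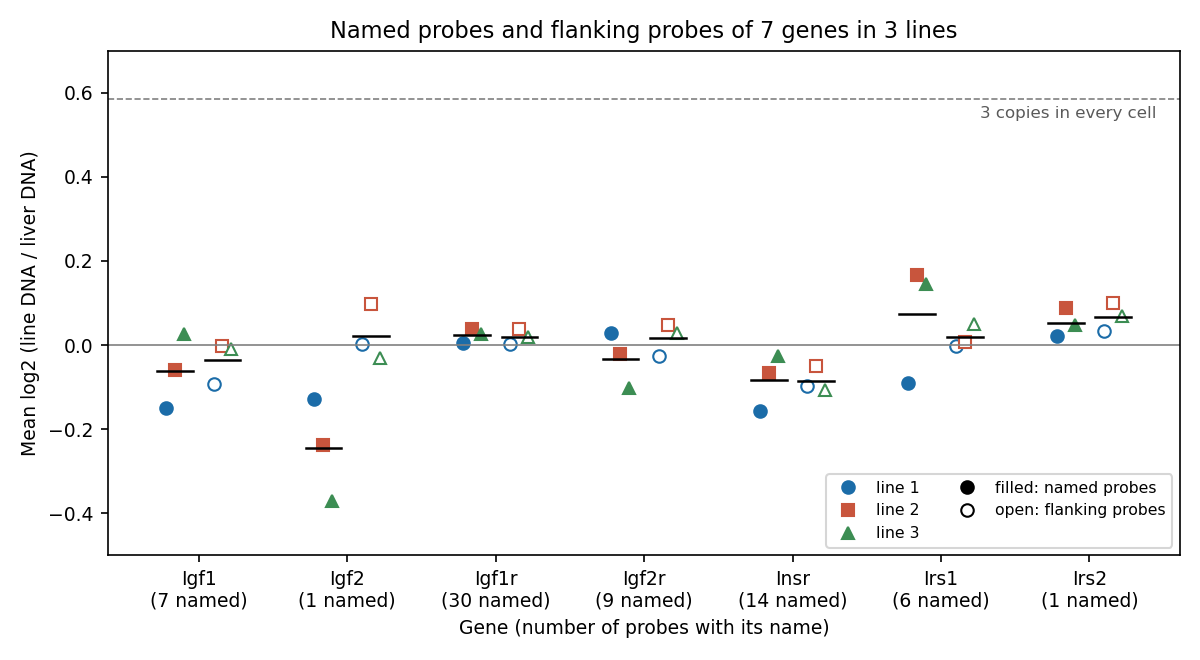
Mean log2 ratio of line DNA over liver DNA (vertical axis) for the probes named for each gene (filled) and for the flanking probes within 500 kb (open), with 1 symbol per line and a bar at the mean of the 3 lines. The dashed line marks 3 copies in every cell, at 0.585. The means of genes with at least 3 probes lie between -0.16 and 0.17 in every line, and the lowest points belong to the only probe of Igf2.

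Igf1 encodes the main circulating IGF, which tissues also make locally. Its 7 probes, from chr10:87333388 to 87393036, averaged -0.15, -0.060 and 0.026 in lines 1, 2 and 3. Line 3 thus lay on the other side of 0 from lines 1 and 2. The mean was -0.061 ± 0.088 (SD, n = 3; limma adjusted p = 0.354, 95% interval -0.17 to 0.045), equal to 1.92 copies (1.78 to 2.06) if all cells were alike. Single probes within the gene ran from -0.61 to 0.29 in line 1 and from -0.47 to 0.24 in line 2. Probe 1 read -0.61, -0.47 and -0.25 in lines 1, 2 and 3, and without it the mean of the gene was 0.0027. The mean moved to -0.017 without line 1, -0.10 without line 3 and -0.00037 with medians over probes, and did not pass in any setting. Its 69 flanking probes averaged -0.093, -0.0020 and -0.0091, a mean of -0.035 (limma adjusted p = 0.220), and -0.0056 without line 1. It passed below 0 with normexp (-0.067, limma adjusted p = 0.0206), with loess (-0.062, 0.0303) and in windows of 250 kb (-0.083, 0.0155). The named probes lay -0.026 from the flank (limma adjusted p = 0.636), a direction that turned in 3 of 14 other settings, to 0.0013 in the authors' value table, 0.034 with medians and 0.022 in windows of 250 kb. The 28 probes before the gene averaged -0.11, 0.083 and 0.12 in lines 1, 2 and 3, while the 41 after it averaged -0.084, -0.060 and -0.095. The side after the gene was thus below 0 in every line, and the side before it was not.

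Igf2, the growth factor of fetal tissues, was read by 1 probe. That probe gave -0.13, -0.24 and -0.37 in lines 1, 2 and 3, and was thus below 0 in 3 of 3 lines, with a mean of -0.25 ± 0.12 (SD, n = 3). Its 84 flanking probes did not show this level, with 0.0018, 0.097 and -0.031 and a mean of 0.023 (limma adjusted p = 0.454). The probe lay 0.27 below its flank on average, as a difference of -0.27 ± 0.12 (SD, n = 3). The probe was outside the main test, which asks for 3 probes. With at least 1 probe required, its mean passed below 0 (limma adjusted p = 0.0447) as did its difference from the flank (limma adjusted p = 0.0381). In either direction, 4768 of 21107 genes passed the first of these tests and 4665 of 21097 the second. Of the 4768 gene means, 1888 passed below 0. A value of 1 probe cannot separate the locus from the probe. H19, the imprinted transcript beside Igf2, had no probe of its name.

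Igf1r, the receptor named in the title of the series, lay at the liver level in all 3 lines. Its 30 probes, from chr7:75103700 to 75372577, averaged 0.0051, 0.038 and 0.026 in lines 1, 2 and 3, the narrowest range of the 5 tested genes. The mean of 0.023 had a 95% limma interval of -0.067 to 0.11, equal to 2.03 copies (1.91 to 2.16) if all cells were alike. The 69 flanking probes gave nearly the same levels in the main setting, with 0.0016, 0.038 and 0.020, a mean of 0.020 (limma adjusted p = 0.50), which turned to -0.0058 with normexp and -0.017 in the authors' value table. With the main setting, the difference between named and flanking probes came to 0.0035, 0.00040 and 0.0061 in lines 1, 2 and 3. Its mean of 0.0033 did not pass (limma adjusted p = 0.952, 95% interval -0.079 to 0.086). In windows of 250 kb the flank averaged 0.071 and passed above 0 (limma adjusted p = 0.0278), and the difference of named from flanking probes turned to -0.048 (0.355). With normexp the gene averaged 0.066 and differed from its flank by 0.072 (limma adjusted p = 0.212), with medians it stood at 0.077, and in the authors' value table at 0.0017, none of which passed.

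Single probes of Igf1r spread far more widely than the line means. Of the 30 probes, 24 had 1 sign in all 3 lines, 13 above and 11 below 0, while 67.1% of all probes on the array did so. The lowest mean was at probe 4, with -0.68 in line 1, -0.36 in line 2 and -0.36 in line 3. The highest was at probe 30, the last along the chromosome, with 0.58, 0.48 and 0.095. High and low probes were interspersed along the gene, with probe 4 between probes above 0 and probe 30 beside a probe near 0. Probe 9 differed most between lines, with -0.71 in line 1, 0.20 in line 2 and 0.45 in line 3. Its liver signal was 716, 447 and 381 on the arrays of lines 1, 2 and 3, while its line signal was 439, 514 and 519. Both channels thus moved in opposite directions, and leaving the probe out gave gene means of 0.030, 0.033 and 0.011 in lines 1, 2 and 3.

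**Figure D2:**
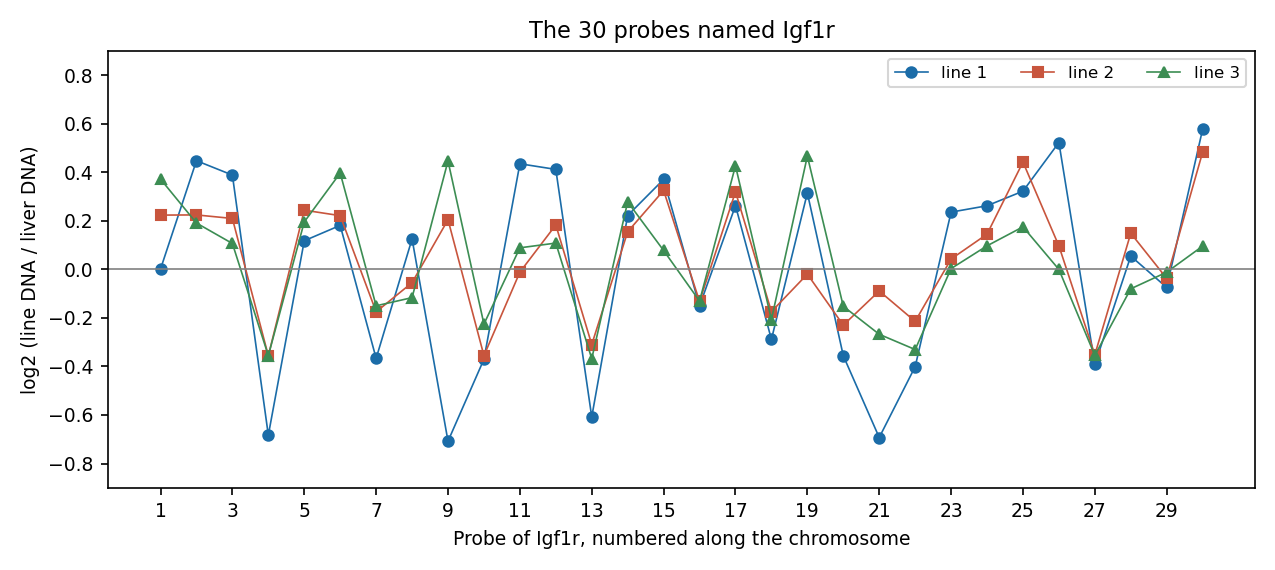
Log2 ratio of line DNA over liver DNA (vertical axis) of the 30 probes named for Igf1r, numbered along the chromosome (horizontal axis), with 1 symbol per line. High and low probes are interspersed in all 3 lines, from -0.71 to 0.58, around line means between 0.0051 and 0.038.

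The sides of the Igf1r window differed. The 38 probes before the gene averaged 0.055, 0.11 and 0.088 in lines 1, 2 and 3, and the 31 after it averaged -0.064, -0.045 and -0.065. All 3 lines were above 0 on one side and below it on the other, and the gene lay between them. Local gene number moved with the sides, with a mean of 10 gene names within 500 kb of a probe before the gene and 6.35 after it, and its part in this difference was not tested. The array-wide trend was 0.0035, 0.0059 and 0.0023 log2 units per gene name in lines 1, 2 and 3. The segments holding Igf1r were long. Line 1 had 1 segment for the whole of chromosome 7, in line 2 the segment ran from chr7:70325047 to 115989852 with a mean of -0.0048, and in line 3 from chr7:73257025 to 152520747 with a mean of -0.00085.

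Igf2r, the receptor that clears IGF2, was near 0 as well. Its 9 probes, from chr17:12880157 to 12958325, averaged 0.028, -0.022 and -0.10 in lines 1, 2 and 3, so that line 1 was above and lines 2 and 3 below 0. The mean was -0.032 ± 0.066 (SD, n = 3; limma adjusted p = 0.60), equal to 1.96 copies (1.83 to 2.09). Probe 5 read -0.40, -0.39 and -0.45, and without it the mean was 0.015. Without line 3 the mean was 0.0026 (limma adjusted p = 0.981). The 74 flanking probes averaged -0.027, 0.048 and 0.028, and the named probes lay -0.049 from them (limma adjusted p = 0.452). Without line 1 that difference was -0.10 and passed (limma adjusted p = 0.0392), in a fit that holds only the lines with 1 animal number and 1 liver label.

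Insr, the insulin receptor, had the lowest mean of the tested members, and its flank was below liver in all 3 lines. Its 14 probes, from chr8:3154240 to 3271841, averaged -0.16, -0.067 and -0.025 in lines 1, 2 and 3, with a mean of -0.083 ± 0.067 (SD, n = 3; limma adjusted p = 0.188), equal to 1.89 copies (1.76 to 2.02). It moved to -0.046 without line 1, -0.033 with normexp and -0.049 with loess, below 0 in each of the 12 other settings. The 50 flanking probes averaged -0.098, -0.051 and -0.11, below 0 in 3 of 3 lines. Their mean of -0.085 passed limma's test (adjusted p = 0.0020, 95% interval -0.13 to -0.040), equal to 1.89 copies (1.83 to 1.95), where 10.04% of 21097 flanks passed below 0. That interval holds only the spread between lines, with lines 2 and 3 counted apart, and no error that the 3 arrays share. The share of all flanks below 0 moved with the processing, from 2119 of 9268 calls to 2652 of 5988 after the gene number trend was removed. The flank of Insr stayed below 0 in each of the 12 other settings, with means from -0.12 to -0.066. Without line 3 its adjusted p was 0.0573. Its flanking probes held a mean of 20.5 gene names within 500 kb, and with the gene number trend removed the flank averaged -0.12 (limma adjusted p = 0.0023). The difference between named and flanking probes was 0.0026 (limma adjusted p = 0.968, 95% interval -0.095 to 0.10), and its sign turned in 4 of 14 other settings.

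High and low probes were interspersed in Insr as well. Probe 10 was the lowest, with -0.92, -0.44 and -0.43 in lines 1, 2 and 3. Probe 9, its neighbour, was the highest, with 0.68, 0.52 and 0.46. Without probe 9 the gene averaged -0.13, and without probe 10 it averaged -0.043, so the sign did not turn. Of the 14 probes, 8 had 1 sign in all lines (57.1%), 3 above and 5 below 0, beside 67.1% of all probes on the array. The 3 probes with a brightness over 2000 averaged -0.44 and the other 11 averaged 0.014, brightness being the geometric mean of both channels in scanner units over the arrays. 

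**Figure D3:**
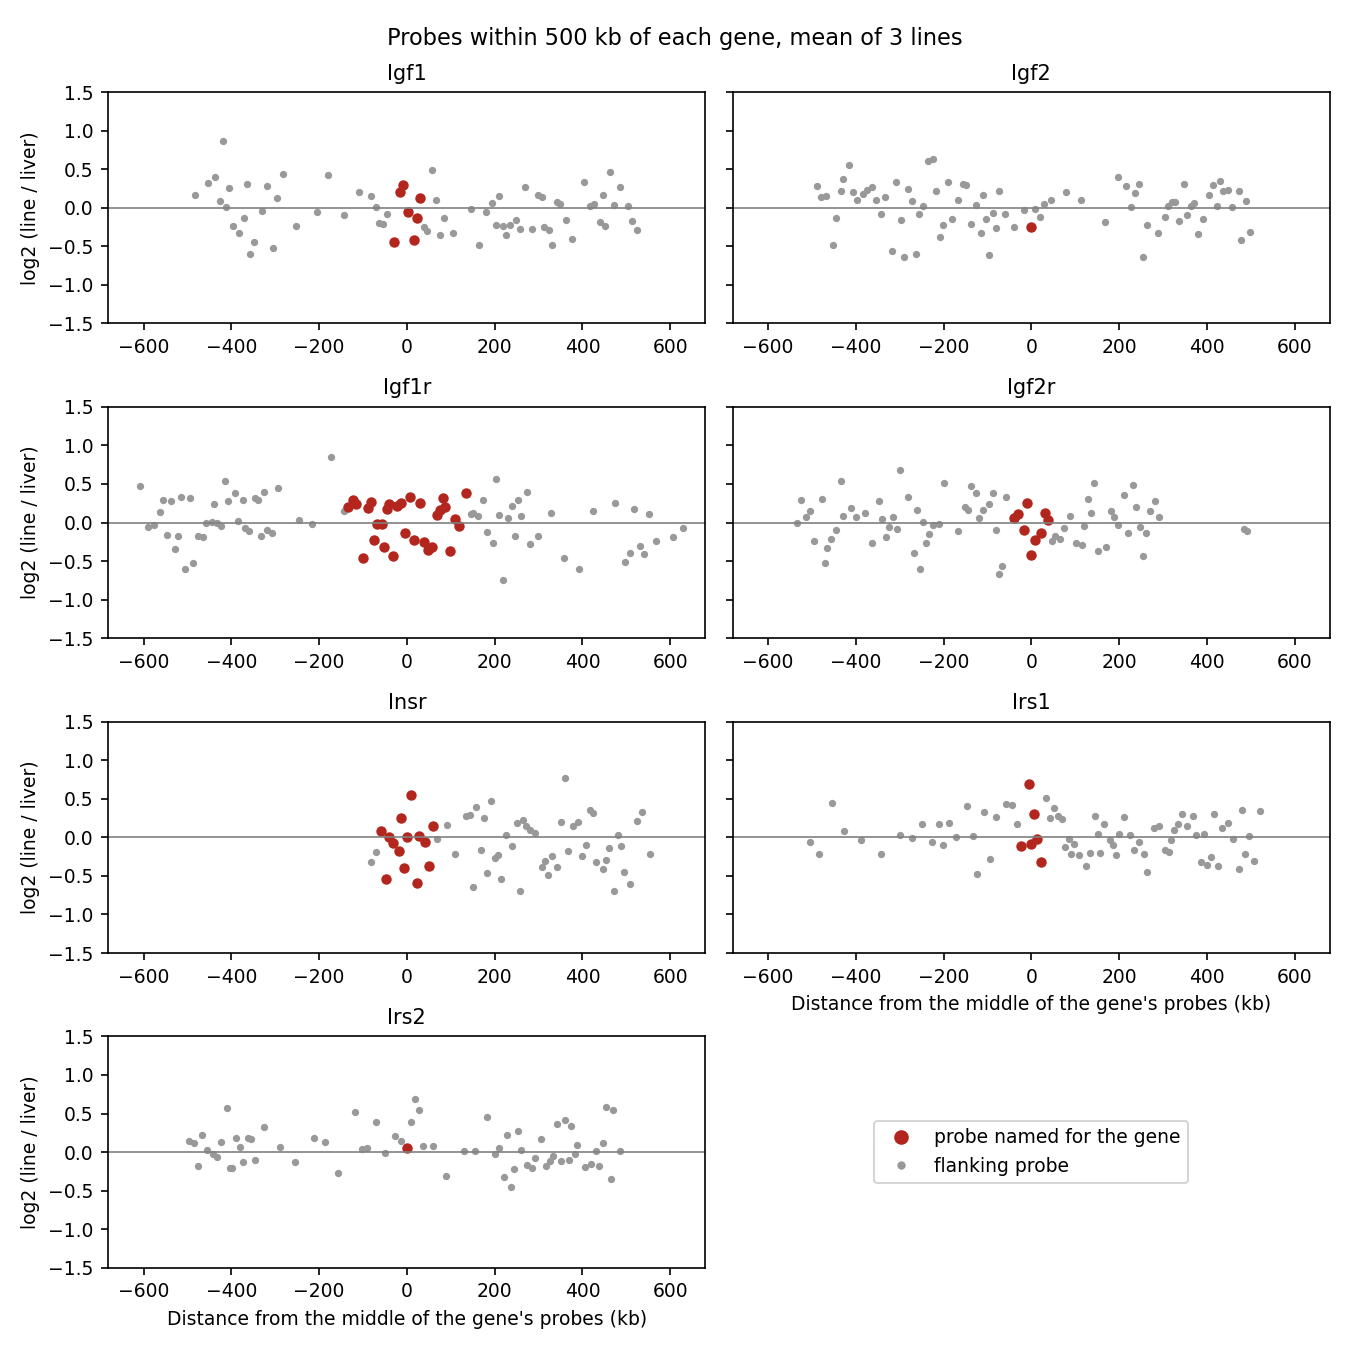
Mean log2 ratio over 3 lines (vertical axis) of the probes around each gene, by distance from the middle of the gene's own probes in kb (horizontal axis), with probes named for the gene in red and flanking probes in grey. Named and flanking probes overlap in every window, and that of Insr ends soon before the gene.

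Irs1, the first adaptor downstream of the IGF and insulin receptors, had the highest mean and the widest spread over lines. Its 6 probes, from chr1:82236419 to 82282298, averaged -0.090, 0.17 and 0.15 in lines 1, 2 and 3. Line 1 thus lay below 0 and lines 2 and 3, which share an animal number, above it. The mean was 0.074 ± 0.14 (SD, n = 3; limma adjusted p = 0.354), equal to 2.11 copies (1.93 to 2.30). Lines 2 and 3 together lay 0.25 above line 1, against an SD of 0.137 of that difference over all genes tested. The gene passed with normexp background correction (mean 0.15, limma adjusted p = 0.0367) and without line 1 (mean 0.16, limma adjusted p = 0.00532), and its adjusted p ran from 0.121 to 0.830 in the other settings.

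The height of Irs1 above 0 in lines 2 and 3 rested mostly on 1 probe. Probe 2 read 0.22 in line 1, 1.14 in line 2 and 0.72 in line 3, and it was the only member probe past 1 in any line. Its line signal was 448, 683 and 552 while its liver signal was 385, 310 and 334 in lines 1, 2 and 3. Without it the gene averaged -0.15, -0.029 and 0.031, a mean of -0.050, so lines 2 and 3 still lay above line 1. With the median over probes in place of the mean, the gene was at -0.039 (limma adjusted p = 0.634). The 75 flanking probes averaged -0.0025, 0.0076 and 0.051, a mean of 0.019 (limma adjusted p = 0.525), so the window did not carry the level of probe 2. The flank passed above 0 with normexp (0.082, limma adjusted p = 0.00435) and in the authors' value table (0.050, limma adjusted p = 0.0417). The difference of named from flanking probes was 0.055 (limma adjusted p = 0.463), and 0.13 without line 1 (limma adjusted p = 0.0115).

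Irs2, the second adaptor of these receptors, was read by 1 probe, which gave 0.021, 0.088 and 0.048 in lines 1, 2 and 3. Its 70 flanking probes were above 0 in 3 of 3 lines, with 0.034, 0.0999 and 0.070. Their mean of 0.068 passed limma's test (adjusted p = 0.0134, 95% interval 0.022 to 0.11), equal to 2.10 copies (2.03 to 2.16), where 33.9% of 21097 flanks passed above 0. The call was lost in the authors' value table (0.0098, limma adjusted p = 0.669), without line 2 (0.052, 0.161), without line 3 (0.067, 0.0893), with lines 2 and 3 averaged as 1 animal (0.059, 0.0603) and in windows of 1000 kb (0.037, 0.122). Insr and Irs2 both lie on chromosome 8, and with the main settings they shared 1 segment in every line, with means of -0.0055, -0.025 and -0.025 in lines 1, 2 and 3. Their flanks thus passed in opposite directions inside a segment close to 0. Under a finer segmentation (penalty of 2 times log(n), at least 5 probes) they fell into separate segments in line 2, at -0.068 for Insr and 0.074 for Irs2, and shared 1 in lines 1 and 3.

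Set against their own windows, the 5 members with at least 3 probes did not stand apart. The difference of named from flanking probes passed limma's test in 0 of 5, with 0 at an unadjusted p under 0.05, where 23.8% of 9431 genes passed. Their median was 0.0026, beside -0.0089 over all genes tested. The median gene mean of the 5 was -0.032, beside 0.011 over all genes, and the median flank of the 7 was 0.019, beside 0.030. The 21, 47 and 32 segments of lines 1, 2 and 3 all had means within 0.2 of 0, so 0 of 7 members lay in a called gain or loss. The finer segmentation called 5 of 84, 18 of 355 and 105 of 477 segments in lines 1, 2 and 3, and 0 of the called ones held a member. The share of all genes inside called segments was not counted, so this 0 cannot be set against the array. Among the member segments of the finer run, that of Igf1r in line 1 had the mean farthest from 0, at 0.091 over 282 probes.

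In the share with 1 sign and in the correlations between lines, single probes of the 7 genes lay near those of the whole array. Of the 68, 48 had 1 sign in all 3 lines (70.6%), 23 above and 25 below 0, beside 67.1% of 170293 probes with a value in all lines. Pearson's r over the 68 probes was 0.706 for line 1 with line 2 (0.694 over all probes), 0.622 for line 1 with line 3 (0.640) and 0.818 for line 2 with line 3 (0.814). These are correlations across probes, which are not independent replicates, and the arrays share probe sequences, dye orientation and slide, and lines 2 and 3 a liver label. Lines 2 and 3, averaged, lay more than 0.7 from line 1 at 2 of 68 probes (2.94%), beside 2.05% of all. These were probe 9 of Igf1r, at 1.03, and probe 2 of Irs1, at 0.71.

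Bright probes read low, with the limit of 2000 chosen after the values were seen. Of the 14 member probes with a brightness over 2000, 13 were below 0 in all 3 lines, 0 were above 0 in all of them, and their mean was -0.32. The 54 dimmer probes averaged 0.065, with 23 above 0 in all lines (42.6%, beside 37.9% of all dimmer probes). Below 0 in all lines were 12 of them, beside 37872 of all 141694 dimmer probes. Over all probes, bright ones averaged -0.22 and dimmer ones 0.049. Over the 68 probes, brightness on a log scale and the log2 ratio correlated at r = -0.656, beside -0.514 over all probes, as a description across probes that share arrays and dye orientation. Of all 28599 probes with a brightness over 2000, 71.3% were below 0 in all lines and 2358 were above 0 in all lines. Loess normalisation within each array took r to -0.152 for the members and 0.018 for all probes, and the mean of the 14 bright probes to -0.071. In Igf1r, the 6 bright probes averaged -0.27 and the other 24 averaged 0.096. In Igf2r, the 3 bright probes averaged -0.26 and the other 6 averaged 0.080. With loess, gene means were -0.072 for Igf1, 0.036 for Igf1r, -0.037 for Igf2r, -0.049 for Insr and 0.12 for Irs1, each with the sign of the main setting, and 0 of 5 passed.

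**Figure D4:**
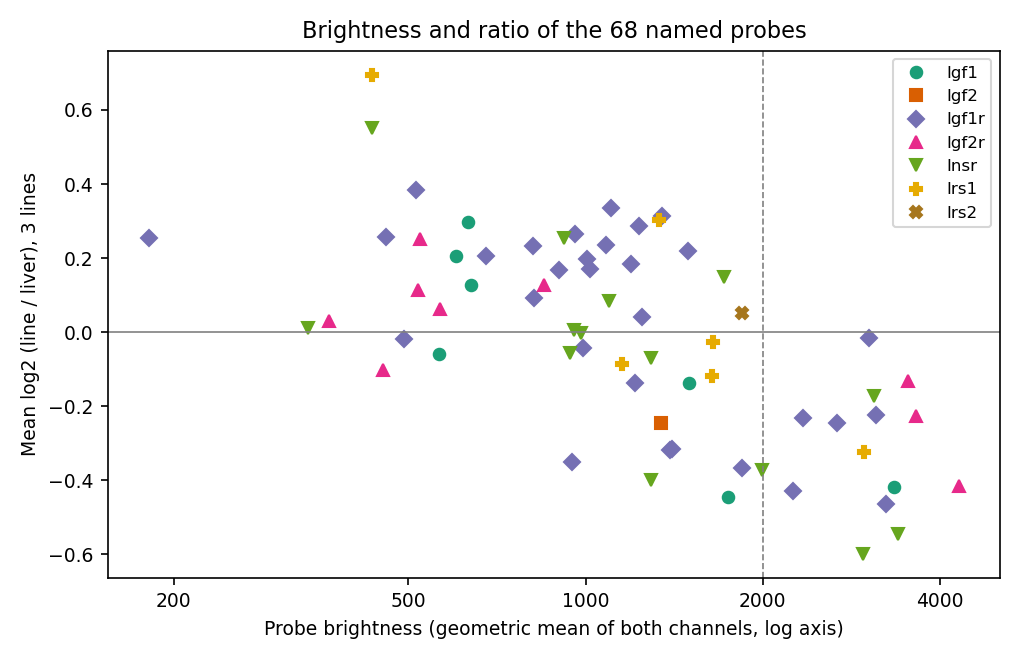
Mean log2 ratio over 3 lines (vertical axis) against probe brightness, the geometric mean of both channels in scanner units (horizontal log axis), for the 68 probes named for the 7 genes, with 1 symbol per gene. The dashed line marks 2000. The 14 probes to its right average -0.32 and the 54 to its left 0.065.

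The wider IGF pathway was read from a list. Of 31 listed genes, which cover binding proteins, their proteases, insulins, further adaptors and the proteins that bind Igf2 RNA, 26 had a probe and 14 had at least 3. Igfbp6, Igfals, Ins1, Ins2 and H19 had no probe of their name. Of the 14, 2 passed above 0, 0 passed below, and 12 did not pass. Their median was 0.010, beside 0.011 over all genes tested, of which 24.1% passed in either direction. Sh2b2, an adaptor of the insulin receptor, had the highest mean. Its 3 probes averaged 0.37, 0.23 and 0.14 in lines 1, 2 and 3, a mean of 0.25 (limma adjusted p = 0.0139), and its flank averaged 0.052 (limma adjusted p = 0.0555). Grb2, which links receptors to RAS, averaged 0.26, 0.18 and 0.051 over 5 probes, a mean of 0.16 (limma adjusted p = 0.0436), and its flank averaged 0.15. Grb2 missed the threshold in 7 of 12 other settings, among them normexp, loess, the authors' value table, the fit without line 2 and that with lines 2 and 3 averaged as 1 animal. Sh2b2 missed it in 1, the authors' value table. Igfbp7, a binding protein of the list, passed there, with normexp, with loess and without line 1. Grb14, which inhibits the insulin receptor, had the lowest mean, with -0.34, -0.10 and 0.0065 over 11 probes, a mean of -0.15 (limma adjusted p = 0.125), and passed below 0 with normexp.

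Set against their flanks, 3 of the 14 listed genes passed, 1 above and 2 below. Sh2b2 differed by 0.19 (limma adjusted p = 0.0366), and was above its flank in 3 of 3 lines. Grb14 differed by -0.23 (limma adjusted p = 0.0400) and Igf2bp2, which binds Igf2 RNA, by -0.197 (limma adjusted p = 0.0151), both below their flanks in 3 of 3 lines. The share of all genes that passed this test was 23.8%. Of 14 other settings, Sh2b2 missed the threshold in 7, Grb14 in 4 and Igf2bp2 in 4, and without line 2 limma passed 0 of the 14 genes (3 at an unadjusted p under 0.05). Flanks passed for 12 of 26 listed genes, 11 above 0 and 1 below, beside 33.9% and 10.04% of all flanks, and the flank median was 0.051, beside 0.030 over all genes. Among the 6 binding proteins with a probe, the flanks of Igfbp2, Igfbp4 and Igfbp7 passed above 0, at 0.065, 0.10 and 0.14. Igfbp5 lies beside Igfbp2 and shares most of its window, and its flank did not pass (0.051, limma adjusted p = 0.0631). Igfbp1 and Igfbp3 also share most of theirs, so these flanks are not separate loci. Of 12 other settings, Igfbp2 missed the threshold in 6, each fit with 1 line left out among them, and Igfbp4 in 1, the removal of the gene number trend. The flank below 0 was that of Pappa, a protease that cleaves IGF binding proteins, at -0.081. It missed the threshold in 5 of 12 other settings, which were normexp, the authors' value table, the removal of the gene number trend, windows of 1000 kb and the fit without line 2.

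**Figure D5:**
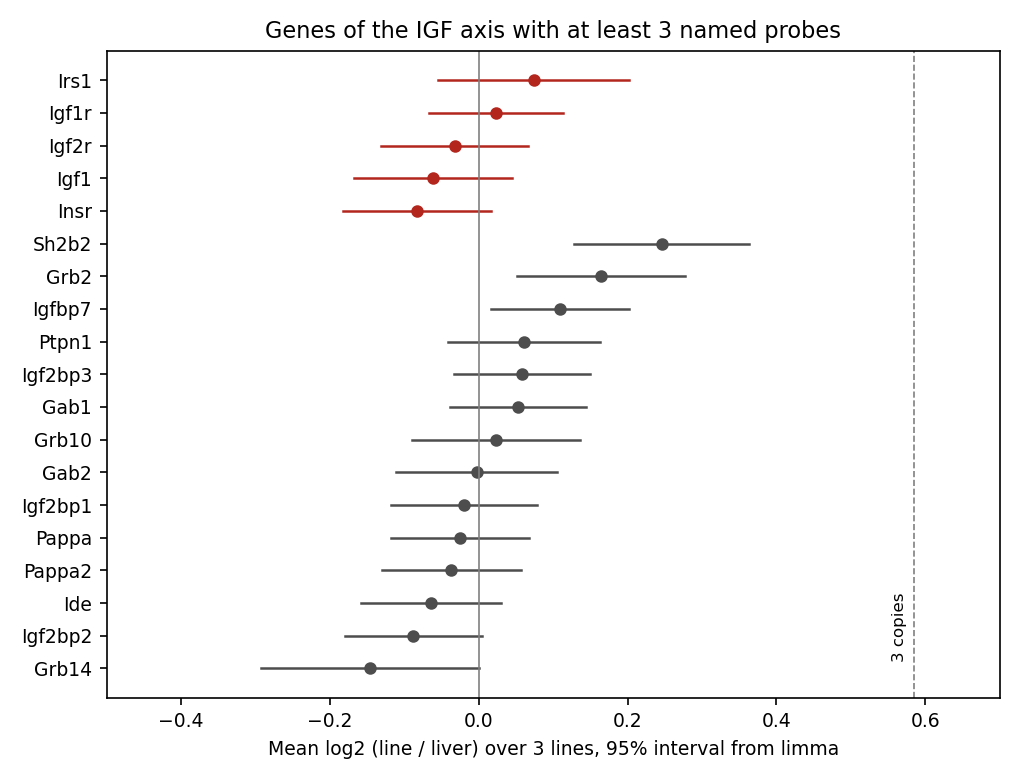
Mean log2 ratio over 3 lines with 95% limma intervals (horizontal axis) for the 5 members (red) and the 14 further pathway genes (grey) with at least 3 probes. The dashed line marks 3 copies in every cell. The means run from -0.15 for Grb14 to 0.25 for Sh2b2, and the intervals of all 5 members hold 0.

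The order of the tested members by mean was Insr at -0.083, Igf1 at -0.061, Igf2r at -0.032, Igf1r at 0.023 and Irs1 at 0.074. The gap between any neighbours in this order was smaller than the larger of their SDs over lines, and their 95% intervals overlapped. Among 1070 other genes with at least 20 probes, the 3 whose line values lay closest to those of Igf1r were L35549 on chromosome 6, AK217838 on chromosome 4 and Jazf1, a zinc finger gene on chromosome 6. Their Euclidean distances over 3 lines were 0.0079, 0.0084 and 0.012. Jazf1 averaged 0.0085, 0.047 and 0.018 in lines 1, 2 and 3, beside 0.0051, 0.038 and 0.026 for Igf1r.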

How the data were processed

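The authors deposited spot intensity values that Agilent Feature Extraction 10.7.3.1 had background-subtracted and dye-normalised, per the file headers, which name the mm9 build. The deposited value table holds log10 ratios, whose medians were 0.000435 for line 1, -0.00146 for line 2 and -0.00271 for line 3, and correlated with the scanner ratios at 0.867, 0.844 and 0.884, which settles its direction. The sources used here do not state how it was centred. Of 180880 spots per array, 6575 controls and the 160 to 179 spots marked as outliers were dropped, spots of 1 probe were averaged, and 170305 probes remained, at a median spacing of 10878 base pairs.

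From the deposited intensities, log2 of Cy5 over Cy3 was computed and the autosomal median of each array subtracted, a positive value being a higher level in the line. Means over a gene's named probes (at least 3), over its flanking probes within 500 kb (at least 10) and their difference were each set against 0 by a moderated test, 2-sided, with limma 3.58.1 in R 4.3.3 (lmFit, then eBayes), and p-values were adjusted over all genes by Benjamini-Hochberg, at a threshold of 0.05. Segments of at least 10 probes came from PELT, a penalised least squares search (penalty 10 times log(n)), and were called at 0.2 from 0. Copies are 2 times 2 to the power of the mean, which takes the autosomal median of each line as 2 copies. The remaining steps ran in Python 3.11.15 with numba 0.67.0, scipy 1.17.1, pandas 2.3.3 and numpy 2.4.6, and the fits were also run on simulated data. The noise of the simulated probes was drawn independently in each line, without the correlation between lines seen here. That run cannot show how such correlation affects the calls. Gene names come from the array's design, a table of GRCm38.p6 names served for synonyms only, and the probe sequences come from the deposited scanner files.

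The members and lists were chosen with earlier results of these data known. The rule named (a) the 7 members; (b) pathway genes past the threshold of the gene test or the difference from the flank, up to 10; (c) the highest and lowest pathway means; (d) the 3 genes with at least 20 probes closest to Igf1r; and (e) single probes that turn a member's sign or are past 1 with 1 sign in all lines. Rule (e) gave 3 probes of the first kind and 0 of the second. Pathway genes named for flanks, for missing probes or for their role, and probes said to be chosen after their values were seen, fall outside it. The p-values and the intervals, also those in copies, rest on the spread between 3 lines, which limma moderates by the spread over all genes tested. An error that the arrays share is not in them. Lines 2 and 3 carry 1 animal number. Alternatives changed the background correction, the normalisation, the source of the ratios, the probes, the windows, the lines and the segmentation.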

Additional observations from a re-analysis of the deposited data

How the results depend on the processing

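Other settings gave 342 values, which were counts of calls or member means and differences. Of the counts, 94 stayed within 1.5 times of the main setting and 34 moved further. Among member values, 182 passed in both settings or, passing in neither, stayed within their SD over lines. A further 16 passed in neither and moved by more than that SD, 10 came to pass the threshold and 6 no longer passed it. No member value that passed in either setting changed sign. Removal of the probe GC trend was chosen after the data were seen and changed none of the counts past the threshold by over 1.5 times. Members past limma's gene test went from 0 to 1 with normexp (Irs1) and to 1 with at least 1 probe (Igf2), and from 0 to 1 with 1 line left out (Irs1 without line 1). Members whose flank passed went from 2 to 4 with normexp, 4 at 250 kb, 1 at 1000 kb and 1 with lines 2 and 3 averaged as 1 animal, and 0 to 2 with 1 line left out, lowest without line 3. Members that differed from their flank went from 0 to 1 with at least 1 probe (Igf2) and from 0 to 2 with 1 line left out. Pathway genes past the gene test went from 2 (Grb2 and Sh2b2) to 1 in the authors' value table, where neither of them but Igfbp7 passed, 1 with the gene number trend removed, 1 with 2 animals, 8 with at least 1 probe and 1 to 3 with 1 line left out. Their flanks went from 12 to 7 without line 2 (7 to 12 with 1 line left out), and differences from the flank from 3 to 1 with loess, 1 at 1000 kb, 6 with at least 1 probe and 0 to 4 with 1 line left out. Of all genes, 2276 passed the gene test, 738 with 2 animals, 4768 with at least 1 probe and 1066 to 3194 with 1 line left out. Of all flanks, 9268 passed, 5988 with the gene number trend removed and 3627 to 8486 with 1 line left out. For differences, 2247 passed, 1428 with loess, 1410 in the value table, 4665 with at least 1 probe and 937 to 3833 with 1 line left out. The median of all gene means stayed within 0.1 of 0 in each setting. Where neither genes nor samples were added or removed, the cause was not tested. The fit without line 1 rests on 1 animal number and 1 liver label. No paired analysis was possible because no other group shares the replicate numbers, although each ratio already sets a line against liver on its own array. A window around a member reached 0.2 from 0 in no setting run. Events shorter than the spacing between probes, or in a small share of cells, could not be seen, and Igf2 and Irs2 rest on 1 probe each.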
